A study of Mus musculus with 10 samples.

Results

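Major histocompatibility complex (MHC) class II genes were followed in macrophages and tumor cells sorted from mouse mammary tumors. The 6 genes, H2-Aa, H2-Ab1, H2-Eb1, Cd74, H2-DMa and Ctss, were chosen by name from the 2 gene tables that the authors deposited, which name 251 of the 35556 probesets on the arrays. All 6 stand in the table of genes that differed between tumor cells of the host genotypes and none in the macrophage table. The tumor cell genotype difference therefore chose them, and it is given below as a description with no test. Each gene was read from its 1 named probeset on all 10 arrays, and all 6 passed the filter on dim probesets.

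The arrays fall into 4 groups. They are CD206hi tumor-associated macrophages (TAMs) from b3KOM mice (3 arrays), TAMs from wild-type (WT) mice (3 arrays), tumor cells from b3KOM hosts (2 arrays) and tumor cells from WT hosts (2 arrays). CD206 is the mannose receptor, and b3KOM mice lack integrin beta3 in cells of the macrophage lineage. All hosts received 100000 PyMT-BO1-GFP-Luc cells in the mammary fat pad, a single mammary tumor line of the mouse with genes for green fluorescent protein and luciferase, and tumors were taken on day 10. The same line was thus placed in hosts of both genotypes. The labels used here state neither the strain, sex and age of the mice, nor the promoter that drives the deletion, nor how many mice stand behind an array. The p-values below therefore rest on the spread between samples that may be technical replicates. Itgb3 is not analysed here. Arrays of 1 cell type had Pearson correlations of 0.981 to 0.993 with each other, computed across probesets.

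MHC class II molecules show peptides from engulfed material to CD4 T cells. They are pairs of an alpha and a beta chain, and in the mouse H2-Aa and H2-Ab1 encode the chains of the I-A molecule while H2-Eb1 encodes the beta chain of I-E. Cd74 encodes the invariant chain, which guides new class II molecules to endosomes and blocks their groove, the protease cathepsin S (Ctss) cuts the invariant chain down, and H2-DMa encodes a chain of the H2-DM complex that then exchanges the remaining piece for peptide. Macrophages, dendritic cells and B cells express class II constitutively or when activated, and interferon gamma induces it through the transactivator CIITA, which acts on promoters that carry the X and Y boxes.

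Promoter sequence is shown because the chain genes and Cd74 had the same lowest and highest TAM array, as described below. RefSeq promoter windows (GRCm38.p6, from 250 bases before to 50 bases after a gene's start) matched 4 of the 6 genes, H2-Aa, H2-Eb1, H2-DMa and Ctss. Of these, only H2-Aa and H2-Eb1 had that array pattern, and its relation to the sequence was not tested. Windows were searched on both strands for 4 motifs, the Y box (CTGATTGG), 1 form of the X1 box (AGCAACNGA), the cAMP response element (TGACGTCA) and a tandem element of interferon regulatory factors (GAAANNGAA), whose letters were chosen after the sequences were seen. No match overlapped another. The 250 bases before the start are printed for the 3 genes with a match, 5′ to 3′ on the gene's strand, with matches in capitals. H2-Aa lies at chr17:34287824-34288073 on the minus strand, H2-Eb1 at chr17:34305617-34305866 on the plus strand and Ctss at chr3:95526536-95526785 on the plus strand.
H2-Aa: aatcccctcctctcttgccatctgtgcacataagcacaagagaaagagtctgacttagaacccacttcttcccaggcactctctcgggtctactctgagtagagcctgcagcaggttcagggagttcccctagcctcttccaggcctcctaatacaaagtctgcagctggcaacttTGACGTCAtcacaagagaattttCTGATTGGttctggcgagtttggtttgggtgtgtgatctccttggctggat
H2-Eb1: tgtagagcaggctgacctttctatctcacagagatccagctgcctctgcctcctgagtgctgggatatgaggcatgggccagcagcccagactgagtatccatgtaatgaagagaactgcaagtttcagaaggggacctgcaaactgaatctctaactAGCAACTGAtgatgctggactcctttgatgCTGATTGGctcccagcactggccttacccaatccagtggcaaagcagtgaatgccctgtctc
Ctss: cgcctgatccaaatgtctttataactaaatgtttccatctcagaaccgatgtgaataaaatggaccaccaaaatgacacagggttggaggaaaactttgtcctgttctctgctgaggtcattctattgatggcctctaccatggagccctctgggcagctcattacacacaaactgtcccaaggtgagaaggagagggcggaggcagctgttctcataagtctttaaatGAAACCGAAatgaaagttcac
The H2-Aa window held a cAMP response element ending 66 bases before the start and a Y box ending 43 bases before it. The H2-Eb1 window held the X1 box form ending 83 bases before the start and a Y box ending 54 bases before it. The Ctss window held the interferon regulatory factor element, ending 12 bases before the start, and neither box in these letters. H2-DMa had 2 windows, with the bases before the start at chr17:34122582-34122831 and chr17:34125268-34125517 on the plus strand. Both held no match in these letters. Whether either start is used in these cells was not tested. Over all 32851 promoter windows the Y box was found in 4.1%, the X1 box form in 1.34%, the cAMP response element in 1.79% and the interferon regulatory factor element in 8.56%. A match in letters describes the sequence and was not tested for binding.

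TAMs carried far more class II message than tumor cells. All 6 genes were higher in TAMs, with log2 differences from 3.90 to 5.27 and a median of 4.61, and all 6 passed the test, where 24.9% of the 20246 tested probesets were called higher. Every TAM array lay above every tumor cell array for each of the 6, as for 20.8% of tested probesets. Values are log2 expression after robust multi-array averaging (RMA), and the test is limma with Benjamini-Hochberg adjustment over all tested probesets, with an adjusted p under 0.05 as a call. The spread in these tests includes that between the tumor cell arrays on which the genes were chosen. The median difference of all tested probesets was -0.14. In such bulk samples fewer cells of a type and less RNA per cell cannot be told apart.

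The chain genes separated the populations by 4 to 5 log2 units. H2-Aa (probeset 10450154) measured 11.37, 11.28 and 11.72 in b3KOM TAMs, 11.40, 11.44 and 11.80 in WT TAMs, 7.93 and 7.97 in tumor cells from b3KOM hosts, and 7.05 and 6.93 in tumor cells from WT hosts. It was 16.3-fold higher in TAMs (log2 difference 4.03 ± 0.12, SE, limma adjusted p = 1.33e-08). The TAM arrays of both genotypes share a range and lie above all 4 tumor cell arrays. H2-Ab1 (probeset 10444291) measured 10.87, 10.62 and 11.18 in b3KOM TAMs, 10.93, 10.84 and 11.35 in WT TAMs, 7.40 and 7.50 in tumor cells from b3KOM hosts, and 6.34 and 6.15 in tumor cells from WT hosts. Its difference was 4.12 ± 0.14 (SE, limma adjusted p = 3.37e-08), or 17.4-fold. The order of its groups is that of H2-Aa. H2-Eb1 (probeset 10444298) measured 10.75, 10.38 and 11.29 in b3KOM TAMs, 10.89, 10.96 and 11.35 in WT TAMs, 6.29 and 6.49 in tumor cells from b3KOM hosts, and 5.08 and 5.51 in tumor cells from WT hosts. It was 34.1-fold higher in TAMs, by 5.09 ± 0.19 (SE, limma adjusted p = 5.64e-08).

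Cd74 and the processing genes followed the same order. Cd74 (probeset 10456005) measured 11.39, 11.11 and 11.69 in b3KOM TAMs, 11.42, 11.48 and 11.86 in WT TAMs, 6.79 and 6.90 in tumor cells from b3KOM hosts, and 5.82 and 5.77 in tumor cells from WT hosts. H2-DMa (probeset 10444229) measured 10.62, 10.53 and 10.89 in b3KOM TAMs, 10.81, 10.77 and 10.81 in WT TAMs, 5.67 and 5.93 in tumor cells from b3KOM hosts, and 5.10 and 5.18 in tumor cells from WT hosts. Both lie over 4 log2 units lower on every tumor cell array than on any TAM array. Ctss (probeset 10494271) measured 11.94, 11.90 and 11.89 in b3KOM TAMs, 11.94, 11.89 and 12.01 in WT TAMs, 8.37 and 8.37 in tumor cells from b3KOM hosts, and 7.78 and 7.59 in tumor cells from WT hosts. Its 6 TAM values are the most alike of the set. Between TAMs and tumor cells, Cd74 differed by 5.17 ± 0.13 (SE), H2-DMa by 5.27 ± 0.09 (SE) and Ctss by 3.90 ± 0.06 (SE), with limma adjusted p from 5.90e-10 to 5.69e-09.

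In every gene the group means ran from WT TAMs, the highest, through b3KOM TAMs and tumor cells from b3KOM hosts to tumor cells from WT hosts. The first 2 of that order did not differ beyond their spread, and the order of the last 2 was set by how the genes were chosen. In tumor cells from WT hosts H2-DMa lay 0.95 and H2-Eb1 1.11 log2 units above the median of the value table (4.19), close to dim levels, so the sizes of their differences are not exact.

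**Figure D1:**
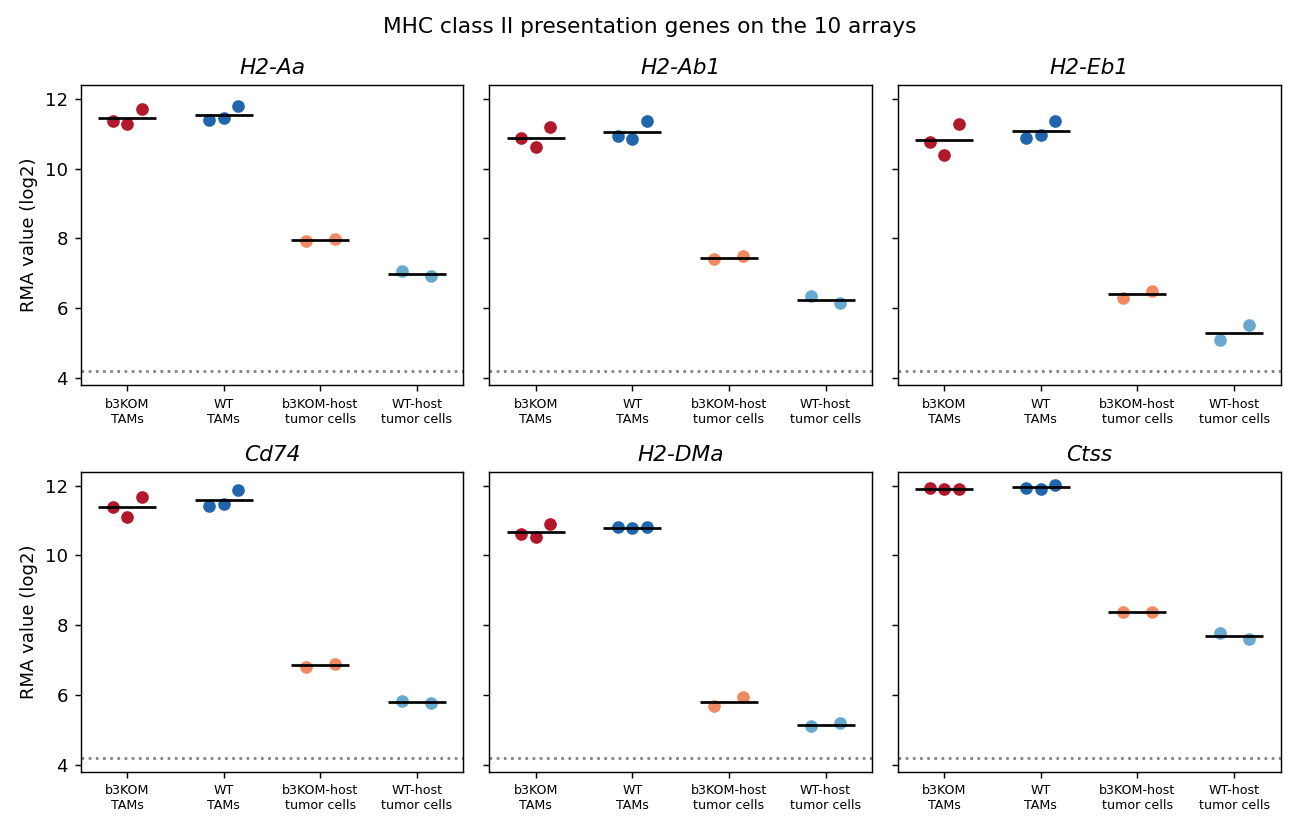
RMA values (log2) of the 6 genes on each array, by group, with the group mean as a bar and the median of the value table (4.19) as a dotted line. For each gene all 6 TAM arrays lie above all 4 tumor cell arrays, and the b3KOM and WT TAM arrays overlap.

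The class II genes did not differ detectably between TAMs of the genotypes. The comparison asks whether macrophages without integrin beta3 express these genes differently. Its mean differences use none of the tumor cell arrays, on whose contrast the authors listed the genes. The authors label both gene lists as unique, and whether genes that differed in both populations were left out is not stated. If they were, the TAM arrays also took part in the choice. Its standard errors, intervals and p-values share a spread estimated over all 10 arrays, the tumor cell arrays included. On TAM arrays alone the standard error of H2-Aa was 0.170, against 0.148 in the shared fit, and that of H2-Eb1 was 0.252 against 0.238. All 6 mean differences, b3KOM minus WT, were below 0, from -0.26 to -0.037 with a median of -0.13, against a median of 0.0058 over all tested probesets. Of the 6 genes 0 passed in limma, where 0.0148% of tested probesets were called, and 0 had an unadjusted p under 0.05 (the lowest was 0.281), where 6.42% of tested probesets had one. The arrays of the genotypes overlapped for all 6, and they did not overlap for 8.8% of tested probesets.

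H2-Eb1 had the largest difference, at 10.81 ± 0.45 (SD, n = 3) in b3KOM TAMs against 11.07 ± 0.25 (SD, n = 3) in WT ones, a log2 difference of -0.26 with a 95% interval of -0.80 to 0.28 (limma adjusted p = 0.913). Cd74 measured 11.40 ± 0.29 (SD, n = 3) in b3KOM TAMs against 11.59 ± 0.24 (SD, n = 3) in WT ones, a difference of -0.19 with an interval of -0.57 to 0.19 (limma adjusted p = 0.903). For both the interval spans 0. The I-A chain genes lay closer to 0, H2-Ab1 at -0.15 with an interval of -0.55 to 0.25 and H2-Aa at -0.094 with an interval of -0.43 to 0.24. H2-DMa differed by -0.12 (interval -0.38 to 0.15). Ctss differed by -0.037 (interval -0.22 to 0.15), the smallest difference and the narrowest interval of the 6. These intervals leave room for modest differences in either direction. Without WT replicate 3 the direction turned for H2-Aa (0.034) and H2-Ab1 (0.0064). The median difference of the 6 genes was -0.030 without that array, -0.037 without b3KOM replicate 2, and -0.26 without b3KOM replicate 3.

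Within a genotype the TAM arrays differed in a way that the chain genes and Cd74 shared. H2-Aa, H2-Ab1, H2-Eb1 and Cd74 were each lowest on b3KOM replicate 2 and highest on WT replicate 3, with b3KOM replicate 3 in second place. The share of all tested probesets with the same lowest and highest array was not computed, so the pattern may not be particular to these genes. WT replicate 3 was also the highest TAM array for Ctss and for the macrophage genes Tyrobp, Mpeg1 and C1qc. These 3 do not stand for macrophage genes in general. Of the 15 named macrophage markers described below, 11 had a higher mean in b3KOM than in WT TAMs. Tyrobp, Mpeg1 and C1qc are among the 4 with a lower one. H2-Eb1 spanned 0.97 log2 units over the 6 TAM arrays (1.96-fold), Cd74 0.75, H2-Ab1 0.73 and H2-Aa 0.53. Their standard deviations within genotype, pooled, were 0.37 for H2-Eb1, 0.28 for H2-Ab1, 0.27 for Cd74 and 0.23 for H2-Aa, against a median of 0.19 over all tested probesets. The percentage of tested probesets with a smaller one was 84.3% for H2-Eb1, 73.1% for H2-Ab1, 70.9% for Cd74 and 62.5% for H2-Aa. Many other probesets thus varied as much.

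The other members varied less. H2-DMa had a pooled standard deviation of 0.13 and was lowest on b3KOM replicate 2, but its highest array was b3KOM replicate 3. Ctss had 0.045, and 2.27% of tested probesets had a smaller one. Its TAM values, from 11.89 to 12.01, lay below the highest value of the whole table, 13.64, but whether its high signal is compressed was not tested.

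As a list mean, markers of the macrophage itself varied less than the class II genes. The 15 named macrophage markers had a mean log2 level between 11.70 and 11.78 on each of the 6 TAM arrays. That mean too was highest on WT replicate 3 (11.78), but it was lowest on b3KOM replicate 3 (11.70). The mean over the 6 class II genes ran from 10.97 to 11.44 on b3KOM TAM arrays and from 11.23 to 11.53 on WT TAM arrays. The interferon gamma response genes, 10 of which are named through the tumor cell table and tested, had the same lowest and highest arrays as the class II chains. Their mean was 8.08, 7.75 and 8.96 on b3KOM TAM arrays and 8.59, 8.62 and 9.35 on WT TAM arrays.

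**Figure D2:**
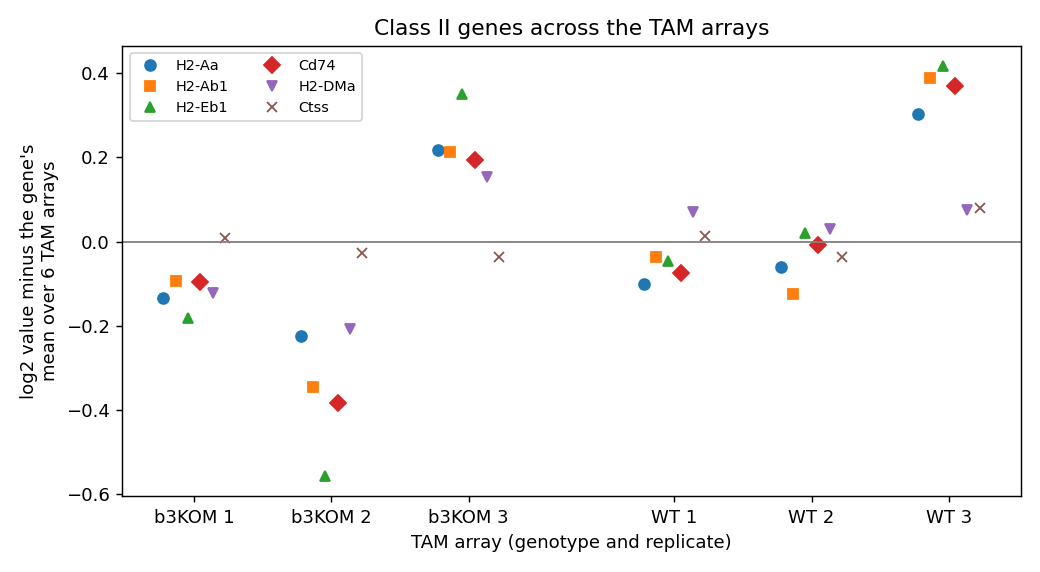
Log2 value of each class II gene on the 6 TAM arrays, minus that gene's mean over them; horizontal positions within an array are offset for reading. H2-Aa, H2-Ab1, H2-Eb1 and Cd74 are each lowest on b3KOM replicate 2, where they run from -0.22 for H2-Aa to -0.56 for H2-Eb1, and highest on WT replicate 3, while Ctss stays within 0.12 log2 units.

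In tumor cells the 6 genes had higher values from b3KOM hosts than from WT hosts, by log2 differences of 0.66 to 1.20 with a median of 1.004, against a median near 0 over all tested probesets (50.0% were above 0). This is the contrast on which the authors listed the genes, so neither the direction nor the size is evidence of its own. The arrays of the hosts do not overlap for all 6 genes, and 17.2% of tested probesets had that pattern in that direction. In the authors' deposited table the 65 genes higher in b3KOM hosts begin at a log fold change, WT against b3KOM, of -0.45, and the largest p-value is 0.00996. In the authors' deposited table the 6 genes lie inside these limits, from -0.69 for Ctss to -1.17 for H2-Ab1, with the authors' p-value highest for H2-DMa, at 0.00566. Class II genes outside the table have no name here, so none just outside its limits can be given.

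The chain genes and Cd74 had the larger differences and the processing genes the smaller ones. H2-Ab1 measured 7.45 ± 0.07 (SD, n = 2) in tumor cells from b3KOM hosts and 6.24 ± 0.14 (SD, n = 2) in those from WT hosts, a ratio of 2.30. H2-Eb1 measured 6.39 ± 0.14 (SD, n = 2) in b3KOM-host cells and 5.30 ± 0.30 (SD, n = 2) in WT-host cells, a ratio of 2.14. Cd74 measured 6.84 ± 0.08 (SD, n = 2) in b3KOM-host cells and 5.80 ± 0.04 (SD, n = 2) in WT-host cells, a ratio of 2.06. H2-Aa had a ratio of 1.95, Ctss of 1.61 and H2-DMa of 1.58. Even in tumor cells from b3KOM hosts each gene stayed at least 3.12 log2 units below the lowest TAM array.

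**Figure D3:**
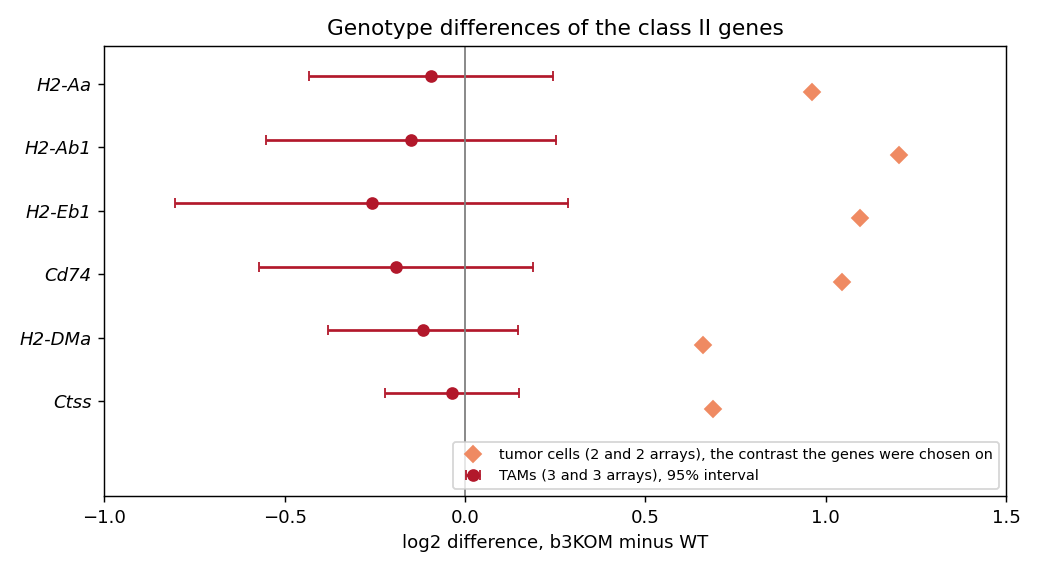
Log2 difference, b3KOM minus WT, of each gene in TAMs (circles, with limma's 95% interval) and in tumor cells (diamonds, the contrast on which the genes were chosen, with no interval drawn). In TAMs every interval spans 0, from H2-Eb1 at -0.26 to Ctss at -0.037, and in tumor cells the differences run from 0.66 to 1.20.

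Macrophage markers had higher values beside the class II genes on the b3KOM-host tumor cell arrays. The log2 difference was above 0 for all 15 named markers, from 0.45 to 1.17 with a median of 0.63, and the authors chose these too on that contrast. The list's summed level, on the linear scale, was 3607 and 3945 on the b3KOM-host arrays against 2389 and 2312 on the WT-host arrays, and that of the class II genes was 984 and 1033 against 558 and 522. Examples are Apoe, an apolipoprotein made in quantity by macrophages, at 0.68 ± 0.11 (SE), Lyz2, lysozyme, at 0.58 ± 0.10, Fcer1g, an Fc receptor chain, at 0.63 ± 0.10, and C1qc, a complement subunit, at 0.65 ± 0.12. No marker lay below the table median on any tumor cell array. All 15 passed as higher in TAMs, by 3.42 to 5.67 with a median of 4.88, a range that holds the class II genes. The part of macrophage RNA in the class II values of tumor cells was not tested.

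H2-Ab1, at 1.20 ± 0.22 (SE), had a larger tumor cell difference than each of the 15 markers. The largest of the markers, at 1.17 ± 0.10 (SE), was closer to it than either standard error. H2-Aa, H2-Eb1 and Cd74 were exceeded by that 1 marker, the chemokine Pf4, named here after its value was seen. Ctss was exceeded by 3 markers and H2-DMa by 5. No test compared the lists. None of the fixed markers of dendritic cells, B cells, T and natural killer cells, neutrophils, mammary epithelium or stroma is named in the deposited tables, so levels of these cell types are not given here.

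The 10 interferon gamma response genes had lower values on the same b3KOM-host arrays. Their median log2 difference between tumor cells of the hosts was -0.85, again on the contrast that chose them. Between TAMs of the genotypes 10 of 10 had negative differences, with a median of -0.59, where 51.7% of tested probesets were above 0. Of the 10, 0 passed in limma, where 0.0148% of tested probesets were called. The arrays of the genotypes overlapped for all 10, and they did not overlap for 8.8% of tested probesets. As their mean shows above, the 10 genes share high and low arrays, so they are not 10 separate observations. The genes with the highest mean levels were Cxcl9 and Cxcl10, T cell attracting chemokines, and the GTPases Gbp2 and Tgtp1, at -0.58, -0.94, -0.91 and -1.004 between tumor cells.

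**Figure D4:**
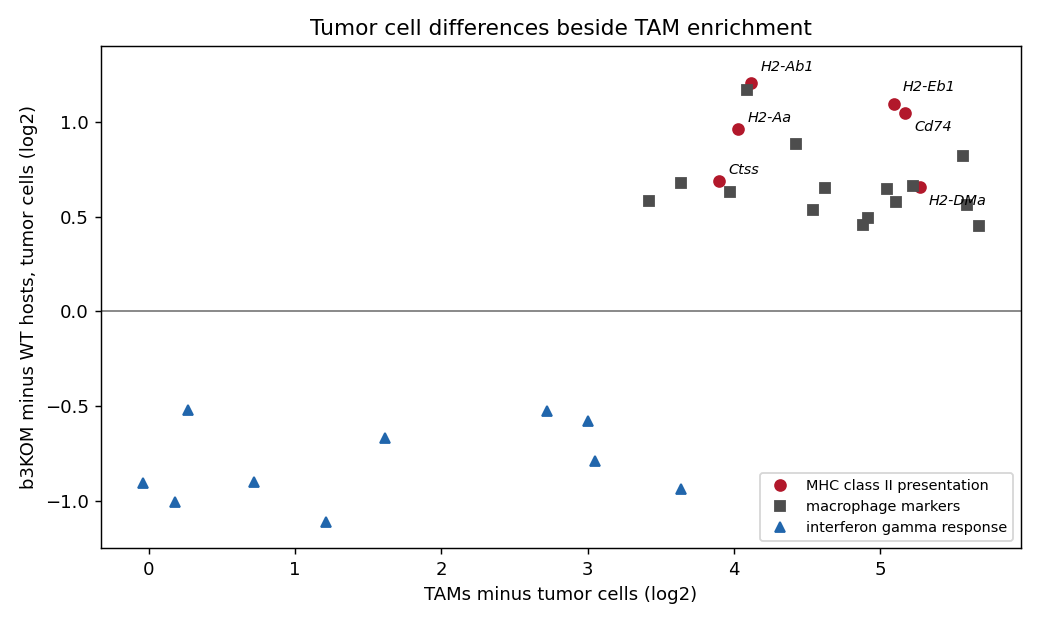
Log2 difference between tumor cells of b3KOM and WT hosts (vertical) beside the log2 difference between TAMs and tumor cells (horizontal), for the 6 class II genes, 15 macrophage markers and 10 interferon gamma response genes. The class II genes and the markers share the upper right, at 3.42 to 5.67 across, and the interferon gamma response genes lie below 0.

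Over all 10 arrays the mean profile of the 6 genes was, among the genes that could be ranked, most like myeloid genes. Likeness is the root mean square difference between centred log2 profiles, computed for 137 named genes, with a median of 2.11 over them. The nearest were Tyrobp, the DAP12 signaling adaptor, at 0.164, Mpeg1, perforin-2 of macrophages, at 0.177, Cd52, a leukocyte surface glycoprotein, at 0.177, C1qc at 0.179 and Srgn, the proteoglycan serglycin, at 0.214. Such profiles consist mostly of the step between cell types. The ranked genes come from the authors' gene tables, which name 15 macrophage markers and none of the fixed markers of other cell types. Those other markers could not be ranked, so the myeloid result depends in part on which genes were available.

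Over the 6 TAM arrays alone another gene was nearest. Ccl8, a monocyte-attracting chemokine, differed from the class II mean profile by 0.0675, where the profile itself had a standard deviation of 0.18 and the median over the 137 genes was 0.268. Ccl8 measured 11.48, 11.15 and 11.64 in b3KOM TAMs and 11.34, 11.50 and 11.73 in WT TAMs. It was lowest on b3KOM replicate 2 and highest on WT replicate 3, like the class II chains. In tumor cells it went against them, at 6.92 and 6.70 from b3KOM hosts and 7.79 and 7.57 from WT hosts. Mst1 (0.125), Cd274, which encodes PD-L1 (0.131), Sirpb1a (0.135) and L3mbtl (0.135) followed, of which Mst1 and L3mbtl lay below the table median on 7 and 4 of the 10 arrays.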

How the data were processed

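Expression was measured on 10 arrays after 50 ng of RNA per sample was amplified, per the labels' protocols. The deposited values are on a log2 scale and come from RMA, run by the authors in Affymetrix Expression Console according to the submitters' processing notes. The sources used here give no tool version and no array model. Per the file headers, each row of the authors' gene tables holds a log fold change (WT against b3KOM, read here as log2), a mean, a t statistic (a score) and a p-value. Probesets were named only from these tables.

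A model with 1 mean per group was fitted with limma 3.58.1 in R 4.3.3 to the 20246 probesets above the table median (4.19) on at least 2 arrays, with 6 residual and 2.35 prior degrees of freedom. Array numbers in the titles do not repeat, so no block was used. The fit was tested on simulated data. Named beside the 6 genes are the list members with the highest means (up to 4 a list) and the 5 genes most like the members; clone names, predicted genes and small RNAs were not ranked. The members and lists were chosen with earlier results of these data known. Of 10 lists, 3 had tested members: class II, macrophage and interferon gamma response. The class I list had 1 named gene, chosen on the TAM arrays and not counted. Alternatives were other filters, scalings, variance models and array weights, single cell types, and leaving out each array. The small number of arrays limits the precision.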

Additional observations from a re-analysis of the deposited data

How the results depend on the processing

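All 6 genes were called higher in TAMs than in tumor cells under each of the 6 other settings and without any 1 array, with limma adjusted p from 4.15e-12 to 1.43e-06, and in the TAM genotype comparison 0 of 6 were called under any of 17 settings, with adjusted p from 0.614 upward. With cyclic loess scaling the median class II difference between cell types was 4.86, the median of all probesets was 0.037 in place of -0.14, and the calls split into 6763 higher and 6283 lower, against 5050 higher and 8333 lower. Of 102 recomputed TAM genotype differences, 2 changed sign. Over the fits that left out 1 array, H2-Aa ran from -0.23 to 0.034, H2-Ab1 from -0.29 to 0.0064, and the median of the 6 genes from -0.26 to -0.030. In tumor cells the median stayed between 0.95 and 1.04.

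The number of probesets called by limma varied more. Between TAM genotypes it was 3, with 8 under the stricter filter (75th percentile), 9 with an intensity trend and robust fitting, 0 on TAM arrays alone (826 at an unadjusted p under 0.05) and 0 to 5 without 1 array. Between tumor cells it was 2, with 0 without a filter (1045 unadjusted), 11 under the stricter filter, 17 with trend and robust fitting, 30 with array weights, 0 on tumor cell arrays alone (1061 unadjusted) and 0 to 2 without 1 array. Where a tumor cell group was left with 1 array, that array is assumed to vary like the others. Between cell types, 8545 of 10848 were called under the stricter filter, which tests fewer probesets, against 13383 of 20246. No paired analysis was possible because the titles give each array a number of its own. Dim values in tumor cells from WT hosts limit H2-DMa and H2-Eb1.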
